A study of Mus musculus with 12 samples.

Results

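The rows described here are pseudogenes of the mouse genome that received reads in renal cortex RNA. Of 55421 rows of the deposited table, 13253 carried the biotype processed pseudogene, unprocessed pseudogene, transcribed processed pseudogene or transcribed unprocessed pseudogene. Of these, 5949 had at least 1 read, and 1715 had a mean of at least 0.5 CPM (counts scaled to a library total of 1000000) over the 12 libraries. These 1715 rows were taken, so their mean level was what chose them. The study asked which transcript changes of the diabetic kidney depend on ANRIL, a long noncoding RNA of the Ink4 locus on chromosome 4. Renal cortex of 3 mice was sequenced in each of 4 groups, namely ANRIL knockout mice with diabetes (KO-D), wild type mice with diabetes (WT-D), knockout controls (KO-C) and wild type controls (WT-C). Diabetes was induced with streptozotocin, a toxin of insulin-producing beta cells, at 50 mg/kg for 5 consecutive days, followed by 2 months of diabetes, and the controls received citrate buffer. The labels give 8 weeks as the age of all mice, and they name 1 strain for all 12 mice, the wild type mice included, 129S6/SvEvTac-Del[4C4-C5]1Lap/Mmcd. The files used here have no row for the ANRIL transcript, so the deletion was not checked. That mice of 1 group are separate animals comes from the study's methods.

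A processed pseudogene is a spliced messenger RNA that was copied into DNA and inserted elsewhere in the genome, so it has the exons of its parent gene joined in 1 block and usually no promoter. An unprocessed pseudogene is a duplicated gene, with its introns, that no longer encodes a full protein. Copies of mitochondrial DNA inserted into nuclear chromosomes are a special kind of such rows. Genes that are active in the germ line, above all those of ribosomal proteins and glycolytic enzymes, have left many processed copies. A young copy still matches its parent base for base, and a short read from that stretch fits both places.

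The sequences below show, for some copies, the stretch that differs most from the coding part of the parent. Each pair gives 80 bases of the pseudogene and the matching 80 bases of the coding part of its parent, read 5′ to 3′ from the GENCODE M21 transcripts of the GRCm38 build. Capitals mark the bases that differ between the members of a pair. The 80 bases were chosen as the aligned window without gaps that has the most differences, or the first of such windows. They can thus overstate how far a copy differs over its length. Gm8979 was 81.25% identical to Gvin1 in its window and 96.15% identical over the whole alignment. The first pairs come from copies with the most reads. Gm28437 at chr1:24613892-24613971 (minus strand) and mt-Co3 at chrMT:8607-8686 (plus strand) had 0 differences in these 80 bases.
Gm28437: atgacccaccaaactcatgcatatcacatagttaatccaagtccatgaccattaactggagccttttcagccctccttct
mt-Co3: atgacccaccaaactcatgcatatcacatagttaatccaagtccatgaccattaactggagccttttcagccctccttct
Gm13340 at chr2:22589114-22589193 (minus strand) is an older copy of mt-Co1 at chrMT:5782-5861 (plus strand), with 5 differences.
Gm13340: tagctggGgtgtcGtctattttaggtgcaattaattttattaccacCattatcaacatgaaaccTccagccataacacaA
mt-Co1: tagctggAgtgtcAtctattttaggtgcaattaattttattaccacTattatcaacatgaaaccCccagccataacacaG
Gm12671 at chr4:91852590-91852669 (minus strand) is 1 of the many copies of Gapdh. Its 80 bases stand in 1 block, and the same 80 bases of Gapdh are split over 2 exons within chr6:125163380-125165293 (minus strand), with 0 differences.
Gm12671: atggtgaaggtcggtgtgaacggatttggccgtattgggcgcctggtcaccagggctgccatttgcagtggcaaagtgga
Gapdh: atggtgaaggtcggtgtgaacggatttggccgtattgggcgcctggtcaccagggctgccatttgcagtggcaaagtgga
Gm7993 at chr5:95975130-95975209 (plus strand) is a processed copy of Odc1, whose 80 bases lie in 2 exons within chr12:17549563-17549723 (plus strand), with 8 differences.
Gm7993: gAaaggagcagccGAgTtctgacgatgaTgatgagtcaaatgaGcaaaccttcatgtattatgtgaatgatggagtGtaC
Odc1: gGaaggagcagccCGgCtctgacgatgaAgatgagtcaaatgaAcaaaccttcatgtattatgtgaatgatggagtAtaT
Gm6300 at chr3:14370804-14370883 (plus strand) is an unprocessed copy near its best match Slc7a12 at chr3:14497242-14497321 (plus strand), with 27 differences.
Gm6300: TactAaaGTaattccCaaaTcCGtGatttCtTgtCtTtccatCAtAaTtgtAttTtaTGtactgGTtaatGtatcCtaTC
Slc7a12: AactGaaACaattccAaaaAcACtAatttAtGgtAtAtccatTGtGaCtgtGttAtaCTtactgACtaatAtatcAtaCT
Nat8b-ps at chr6:85932702-85932781 (minus strand) stands beside its best match Nat8f1 at chr6:85910299-85910378 (minus strand), with 12 differences.
Nat8b-ps: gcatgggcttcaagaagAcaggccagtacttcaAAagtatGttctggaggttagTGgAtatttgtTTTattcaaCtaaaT
Nat8f1: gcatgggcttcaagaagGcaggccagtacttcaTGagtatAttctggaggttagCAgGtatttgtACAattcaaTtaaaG
Gm15454 at chr1:134518458-134518537 (plus strand) is a processed copy of Rpl29 at chr9:106431344-106431423 (plus strand), with 2 differences.
Gm15454: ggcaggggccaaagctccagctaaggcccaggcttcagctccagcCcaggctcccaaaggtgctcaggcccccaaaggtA
Rpl29: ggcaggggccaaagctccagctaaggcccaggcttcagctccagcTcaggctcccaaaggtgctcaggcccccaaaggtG
Gm8979 at chr7:106076958-106077037 (minus strand) is a neighbour of its best match Gvin1 at chr7:106158185-106158264 (minus strand), with 15 differences.
Gm8979: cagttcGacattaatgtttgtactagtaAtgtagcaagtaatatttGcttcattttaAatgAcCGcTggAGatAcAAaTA
Gvin1: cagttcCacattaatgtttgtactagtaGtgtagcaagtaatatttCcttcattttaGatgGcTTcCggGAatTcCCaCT

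Of the 1715 pseudogenes, 1511 were processed, 88 unprocessed, 71 transcribed processed and 45 transcribed unprocessed. Their median mean level was 2.65 CPM, 382 reached 10 CPM, 32 reached 100 CPM and 9 reached 1000 CPM. These 9 held 87.1% of all reads of the 1715 rows. Just inside the limit were Gm5550 (0.501 CPM), Gm3436 (0.501) and Gm8249 (0.502), and just outside were Gm8865 (0.4998), Gm14094 (0.499) and Gm6085 (0.498). In 1518 of them the mean of each of the 4 groups was at least 0.5 CPM, and 4 reached it in 1 group only. All 1715 passed the filter on low counts of the test used below.

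The parent, taken as the best match among the transcripts of other protein-coding genes, was found for 1706 pseudogenes (99.5%), and the parents were 739 different genes. Identity to the parent had quartiles of 95.6, 97.7 and 99.1%, and 110 pseudogenes matched at 100%. At least 90% of the length was aligned in 1578 (92.0%). The largest group was 533 copies (31.1%) of 78 genes of cytosolic ribosomal proteins. The other groups were 92 copies of 12 glycolytic genes, 76 of chromatin and nuclear proteins, 69 of nuclear-encoded respiratory chain subunits and carriers, 60 of splicing and RNA-binding proteins, 58 of translation factors, 52 of chaperones and prolyl isomerases, 51 of ubiquitin and proteasome genes, 25 of cytoskeletal genes, 22 of genes of drug and steroid metabolism, 15 of mitochondrial DNA, 7 of antioxidant genes, 6 of interferon-induced and antigen presentation genes and 2 of iron storage genes, while 638 had other parents. Among the 288 pseudogenes named -ps after a gene, 10 matched another gene best. Rps7-ps2, named after a ribosomal protein, was such a case, since its best match was Odc1 at 94.8% over 67.9% of its length.

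Stretches of 100 bases that recur exactly in the transcripts of another gene were common. All such stretches were shared in 124 pseudogenes (7.23%), at least 50% in 390 (22.7%), under 50% in 905 (52.8%) and none in 289 (16.9%), and 7 gave no stretch. With stretches of 50 bases, 32 shared none. The 124 fully shared rows had reads in every library, at least 5, with a median mean level of 7.25 CPM. The 289 rows with no shared stretch had a median of 1.29 CPM and a highest of 50.7 CPM. Their share was searched in annotated transcripts only, not in the whole genome. How reads that fit several places were treated is not given in the sources used here. The same read may be counted at several rows, so the shares and sums of copies given below need not be separate reads. Exons of 83 pseudogenes overlapped exons of another gene, 47 of them on the other strand, and the kit does not mark strand, so those reads cannot be assigned to either partner.

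The libraries held 23781928 to 67336174 counted reads, and libraries of 1 group correlated at 0.969 to 0.990 across genes, which are not independent replicates. TMM factors, which scale libraries to a common composition, were 0.891 to 1.28 in the diabetic mice and 0.737 to 0.974 in the controls. On the first principal component of all genes tested (50.9% of the variance), the third WT-D mouse stood at 5.92, between the other diabetic mice (47.9 to 66.0) and the controls (-65.4 to -33.0). The first WT-D library also held fat and adrenal transcripts, with a summed level of 45.5 CPM for 2 adipocyte markers and 32.8 CPM for 3 adrenal markers. Markers of the proximal tubule averaged 89.3 to 1919 CPM, so the defining markers of renal cortex were present. Since the tissue was not separated into cells, fewer cells of a type and less RNA per cell cannot be told apart in any result here.

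Copies of the mitochondrial genome took most of the reads counted at the pseudogenes. The same reads may be counted at the mitochondrial genes as well, so the shares below need not come from the copies themselves. A run of 7 pseudogenes on chromosome 1 (positions 24611535 to 24616197, minus strand) matched the mitochondrial genes mt-Co1, mt-Co2, mt-Atp6, mt-Co3, mt-Nd3, mt-Nd4l and mt-Nd4, which encode subunits of the respiratory chain and of the ATP synthase, at 99.7 to 100% identity over 4663 bases. With 8 further mitochondrial copies on chromosomes 2, 4, 11 and 13, they were 15 rows. The share of counted reads at all 1715 pseudogenes was 14.3% ± 0.527 in KO-D mice, 14.7% ± 1.50 in WT-D mice, 12.7% ± 1.55 in KO-C mice and 15.4% ± 2.03 in WT-C mice (SD, n = 3 each), and it lay between 10.9 and 17.5% in all libraries. The run on chromosome 1 alone took 12.3% in KO-D, 12.6% in WT-D mice, 10.6% in KO-C mice and 13.2% in WT-C mice. The mitochondrial genes themselves took 22.2% in KO-D, 22.5% in WT-D mice, 19.4% in KO-C mice and 23.8% in WT-C mice. The 1700 other pseudogenes took 1.74% in KO-D, 1.78% in WT-D mice, 1.86% in KO-C mice and 1.89% in WT-C mice. The groups overlapped in the share of all 1715 rows, and no test was made of a sum over rows chosen by their level.

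**Figure D1:**
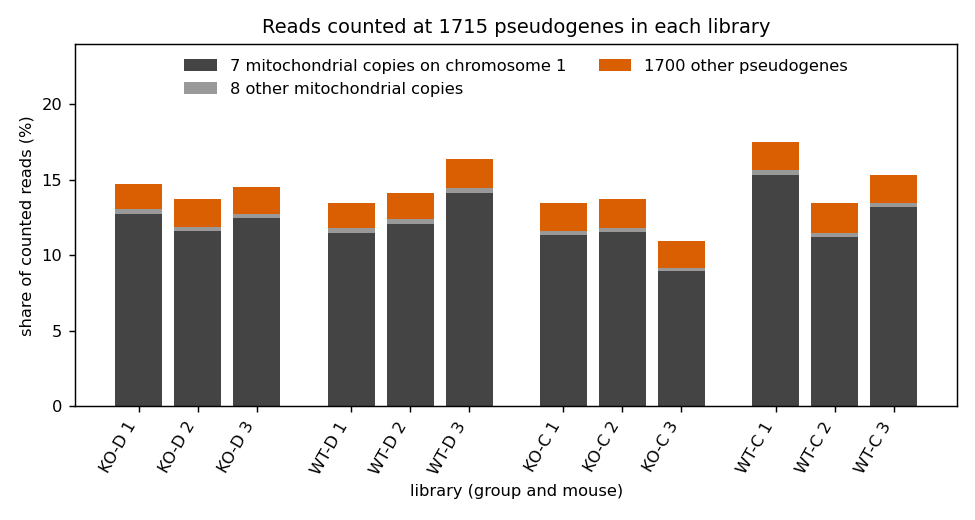
Share of the counted reads of each library (percent) at the 7 mitochondrial copies on chromosome 1 (dark grey), at 8 other mitochondrial copies (light grey) and at the 1700 other pseudogenes (orange), for 3 mice per group. The dark grey part is 8.96 to 15.3% in all 12 libraries and the total 10.9 to 17.5%.

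The most abundant pseudogene, Gm28437 (ENSMUSG00000101111), matched mt-Co3, subunit 3 of cytochrome c oxidase, over its full 783 bases. It averaged 32809 CPM over the 12 libraries against 32912 CPM for mt-Co3, and its reads were 0.995 to 0.998 of those of mt-Co3 in every library. Gm28661 kept the same balance with mt-Co2 (0.991 to 1.00), Gm28438 with mt-Nd3 (0.971 to 0.982) and Gm10222 with mt-Nd4l (0.962 to 0.973). In these 4 pairs the row on chromosome 1 and the mitochondrial gene received nearly equal reads in all 12 libraries, from all 4 groups. The other 3 copies of the run departed from equal reads. Gm10925 had 1.34 to 1.50 times the reads of mt-Atp6, Gm29216 had 0.372 to 0.484 of those of mt-Co1 and Gm28439 had 0.350 to 0.441 of those of mt-Nd4. These ratios are of read totals and are not corrected for length. Gm29216 has 492 bases, while mt-Co1 spans positions 5328 to 6872 of the mitochondrial genome. Gm28439 has 876 bases and overlaps Gm10222, while mt-Nd4 spans positions 10167 to 11544. The older copies on chromosome 2 stood far lower, with 0.0350 to 0.0443 of the reads of mt-Co2 at Gm13341 (95.9% identity) and 0.0234 to 0.0301 of those of mt-Co1 at Gm13340 (97.6%).

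**Figure D2:**
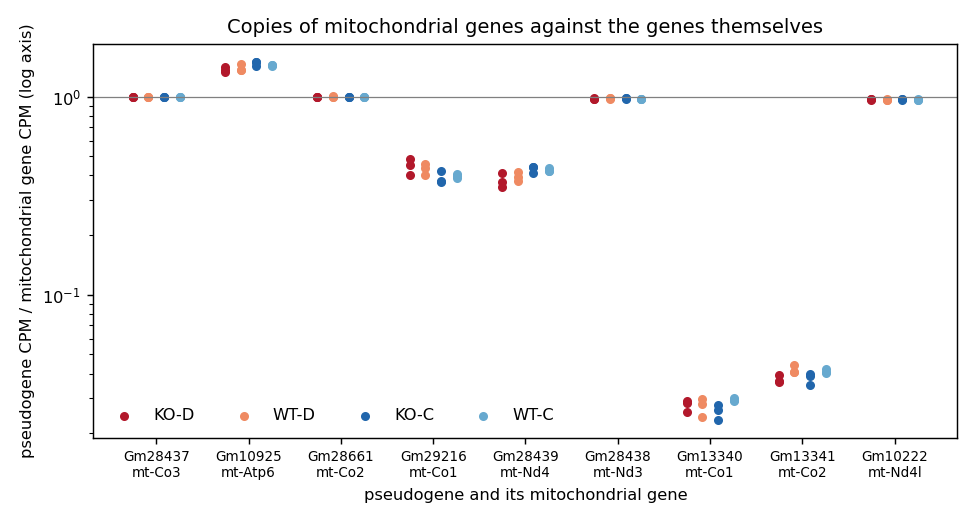
Reads at 9 pseudogenes divided by the reads at the mitochondrial gene each one matches (log axis), for 3 mice of each group (colours). Gm28437, Gm28661, Gm28438 and Gm10222 lie at 0.962 to 1.00 in all libraries, and Gm13341 and Gm13340 at 0.0234 to 0.0443.

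After TMM scaling, Gm28437 had 29602, 23643 and 27218 CPM in KO-D mice, 24819, 27156 and 45221 in WT-D mice, 30873, 33965 and 26423 in KO-C mice and 57830, 34884 and 42759 in WT-C mice. The WT-C mice lay above the KO-D mice without overlap, and the difference was within the error of the fit (log2 change -0.73, SE 0.50, limma adjusted p = 0.26). No mitochondrial copy was called by limma within either genotype. In KO-D against WT-C, 5 of 15 were called, and all 5 were lower, where 40.1% of all genes tested were called and 20.7% were lower. They were Gm11410 (-1.04, matching mt-Cytb), Gm10222 (-1.06, mt-Nd4l), Gm4076 (-0.99, mt-Nd5), Gm11407 (-0.89, mt-Nd5) and Gm13339 (-0.71, mt-Nd2). Without scaling the calls numbered 0, and edgeR called 8 and DESeq2 11. The call of Gm10222 was lost without WT-C 1, WT-C 3, KO-D 2 or KO-D 3, with log2 changes of -1.02 to -0.76.

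Among copies of nuclear genes, Gm15459, a copy of the chaperone gene Hspa8, had the most reads. It stood at 1120 TMM-scaled CPM, 689 and 815 in KO-D mice, 587, 742 and 907 in WT-D mice, 932, 899 and 1676 in KO-C mice and 402, 674 and 1024 in WT-C mice, and the groups overlapped. Its reads were 0.350 to 0.436 of those of Hspa8. Gm1821, a copy of the polyubiquitin gene Ubb, had 0.297 to 0.424 of the reads of Ubb, Gm10123 had 0.293 to 0.386 of those of the prolyl isomerase gene Ppia, and Gm13841 had 1.34 to 1.92 times those of Rpl29. For a minority of the parents the copies together had a higher summed CPM than the gene. The 64 copies of Gapdh, the glycolytic glyceraldehyde-3-phosphate dehydrogenase, summed to 1724 CPM against 1594 CPM at Gapdh. The 39 copies of Rps2 summed to 971 CPM against 467 at Rps2, and the 22 copies of Rpl29 to 329 CPM against 63.3 at Rpl29. These values are read totals and are not corrected for length. Copies can share stretches with the parent and with each other, so a read may enter such a sum more than 1 time. Of the 739 parents, 64 lay below the sum of their copies, among them 8 of the 28 parents with at least 9 copies.

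Calls were made with limma on log2(CPM + 0.1) after TMM scaling, in 1 fit over 18461 genes, at a Benjamini-Hochberg adjusted p of 0.05 over all of them. In diabetic wild type kidneys most of the called pseudogenes were lower, while 1488 were not called. In WT-D against WT-C, 227 of 1715 (13.2%) were called, 35 higher and 192 lower, against 22% of all genes tested (13.7% higher and 8.22% lower). Their median log2 change was -0.41, against 0.05 for all genes tested. At an adjusted p of 0.01, 36 were called (8.33% of all genes). The split of directions depended on the scaling: with no scaling 76 were higher and 32 lower, while the median of all genes moved to 0.42 and that of the pseudogenes to -0.05. In both fits the pseudogenes thus stood about as far below the median of all genes. The count was 100 without WT-C 1, 39 without WT-D 1, 54 without WT-D 2 and 629 without WT-D 3.

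Copies of Odc1, which encodes ornithine decarboxylase, the rate-limiting enzyme of polyamine synthesis, fell together in diabetic wild type kidneys. Of 11 copies, 9 were lower in WT-D against WT-C, 4 in KO-D against KO-C and 10 in KO-D against WT-C, where 8.22, 17.4 and 20.7% of all genes tested were lower. The most abundant, Gm7993, had 94.6, 38.7 and 61.2 TMM-scaled CPM in KO-D mice, 93.2, 58.3 and 187 in WT-D mice, 209, 232 and 236 in KO-C mice and 429, 281 and 406 in WT-C mice. Every diabetic mouse lay below every control mouse. The log2 change was -1.86 in WT-D against WT-C (SE 0.37, limma adjusted p = 0.0044) and -1.89 in KO-D against KO-C (adjusted p = 0.0020). Odc1 itself changed by -1.77 (adjusted p = 0.0069) and by -1.02 (adjusted p = 0.060) in these comparisons. Gm9260, Gm7450 and Gm17709 fell by 1.89, 1.86 and 1.85 on the log2 scale in WT-D. Rps7-ps2, also among the 11 and named here after its values were seen, changed by -1.78 in WT-D against WT-C (limma adjusted p = 0.0020) and by -1.08 in KO-D against KO-C (adjusted p = 0.017).

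The largest falls in diabetic wild type kidneys included, beside the copies of Odc1, those of Gm6300, Nat8b-ps, Ces2d-ps and Cyp4b1-ps2. Gm6300 (ENSMUSG00000104375), whose best match is the amino acid transporter gene Slc7a12, had 16.3, 5.68 and 9.75 TMM-scaled CPM in KO-D mice, 12.4, 6.54 and 40.7 in WT-D mice, 48.8, 57.7 and 70.5 in KO-C mice and 136, 62.7 and 98.1 in WT-C mice. Diabetic and control mice did not overlap, and the third WT-D mouse was the highest of the diabetic ones. It changed by -2.65 in WT-D against WT-C (SE 0.53, limma adjusted p = 0.0047) and by -2.58 in KO-D against KO-C (adjusted p = 0.0029). Slc7a12 was not called, with log2 changes of 0.26 and 0.58, and it matched Gm6300 at 75.7% only. Nat8b-ps, matching the N-acetyltransferase gene Nat8f1, had 5.72, 4.37 and 3.48 CPM in KO-D mice, 4.95, 7.04 and 17.6 in WT-D mice, 27.1, 31.1 and 24.5 in KO-C mice and 47.0, 32.4 and 28.6 in WT-C mice. Its log2 changes were -2.03 and -2.60 (limma adjusted p = 0.0024 and 0.00026), and those of Nat8f1 were -1.97 and -2.51. Ces2d-ps, matching the carboxylesterase gene Ces2c, changed by -2.01 and -2.11, and Cyp4b1-ps2, matching a cytochrome P450 gene, by -2.06 and -1.07. Of the 22 copies of genes of drug and steroid metabolism, 4 were lower in WT-D against WT-C, while KO-D against KO-C had 10 lower, with none higher in either, against 8.22 and 17.4% lower over all genes tested.

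These falls went along with lower levels of proximal tubule markers in part of the comparisons. The summed level of 5 proximal tubule markers was 2253 to 3685 CPM in KO-D mice, 3339 to 3802 CPM in WT-D mice, 5624 to 7056 CPM in KO-C mice and 3174 to 5650 CPM in WT-C mice. All 5 were lower in KO-D against KO-C, and 1 was lower in WT-D against WT-C. Their part in the falls was not tested.

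Pseudogenes of interferon-induced genes rose in both genotypes. All 6 copies with such parents were higher in all 3 comparisons of diabetic with control mice, with median log2 changes of 1.90 in WT-D against WT-C, 2.61 in KO-D against KO-C and 2.55 in KO-D against WT-C. Of all genes tested, 13.7, 13.6 and 19.4% were higher in these comparisons. The 6 rows had 3 parents. The limit of 0.5 CPM was set on the mean of all 12 libraries. Gm8979, described next, averaged 0.126 TMM-scaled CPM in WT-C mice and 0.198 in KO-C mice. A row at such a level in the controls that did not rise would not have been taken. The count of 6 is therefore partly set by how the rows were chosen. Without WT-D 1 the first of these counts was 3. Gm8979 (ENSMUSG00000095649), matching the interferon-inducible GTPase gene Gvin1, had 3.44, 1.71 and 1.93 TMM-scaled CPM in KO-D mice, 3.01, 1.90 and 0.206 in WT-D mice, 0.235, 0.127 and 0.232 in KO-C mice and 0.0332, 0.140 and 0.204 in WT-C mice. These values rest on 52 to 109 reads a library in KO-D mice, 6 to 243 reads in WT-D mice, 4 to 8 reads in KO-C mice and 1 to 6 reads in WT-C mice. The third WT-D mouse stood at the level of the controls and the other 5 diabetic mice far above them. The log2 change was 3.00 in KO-D against KO-C (SE 0.66, limma adjusted p = 0.0044) and 2.54 in WT-D against WT-C (adjusted p = 0.017). The call in WT-D against WT-C was lost without WT-C 1, WT-D 1 or WT-D 2 (1.87 to 2.19).

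Gm7592, matching the nuclear body gene Sp100, had 1.23, 1.28 and 1.46 TMM-scaled CPM in KO-D mice, 1.43, 0.895 and 0.241 in WT-D mice, 0.0587, 0.0952 and 0.116 in KO-C mice and 0.0664, 0.0280 and 0.102 in WT-C mice. Ifi203-ps, matching the interferon-activated gene Ifi203, had 3.22, 2.73 and 2.47 in KO-D mice, 2.61, 1.83 and 0.550 in WT-D mice, 0.264, 0.508 and 0.203 in KO-C mice and 0.432, 0.280 and 0.272 in WT-C mice. For both genes all diabetic mice lay above all control mice, and the third WT-D mouse was the lowest diabetic one. Their log2 changes were 2.91 and 2.83 in KO-D against KO-C and 2.31 and 1.83 in WT-D against WT-C. BC023105, whose best match is the predicted gene Gm4841, had the largest increases, 4.28 in KO-D against KO-C and 3.43 in WT-D against WT-C (limma adjusted p = 5.8e-05 and 0.00036). Markers of T cells and macrophages are given beside these rows. The summed level of 3 T cell markers was 1.63 to 2.35 CPM in KO-D mice, 1.26 to 2.02 CPM in WT-D mice, 0.234 to 0.658 CPM in KO-C mice and 0.360 to 0.735 CPM in WT-C mice. By limma 3 of 3 were higher in KO-D against KO-C and 0 of 3 in WT-D against WT-C. The summed level of 4 macrophage markers was 44.6 to 117 CPM in KO-D mice, 81.7 to 141 CPM in WT-D mice, 51.0 to 65.5 CPM in KO-C mice and 46.3 to 61.3 CPM in WT-C mice, and 3 of 4 were higher in WT-D against WT-C, while KO-D against KO-C had 2 higher and overlapping sums. Their part in the increases was not tested.

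**Figure D3:**
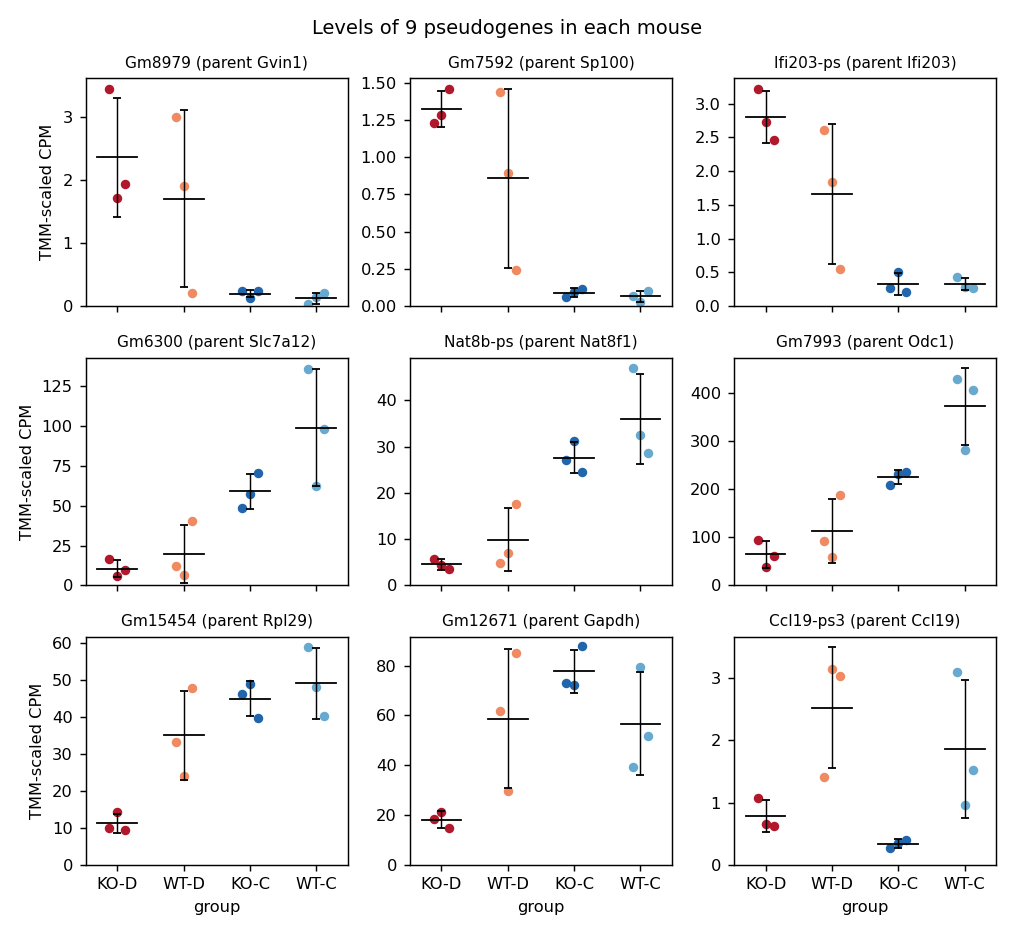
TMM-scaled CPM of 9 pseudogenes in each mouse (points) with mean and SD (black, n = 3 per group). Gm8979, Gm7592 and Ifi203-ps are high in KO-D and in the first and second WT-D mice, Gm6300, Nat8b-ps and Gm7993 are low in both diabetic groups, Gm15454 and Gm12671 are low in KO-D, and Ccl19-ps3 is low in both knockout groups.

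In diabetic knockout kidneys, too, most of the called pseudogenes were lower, while 1406 were not called. In KO-D against KO-C, 309 of 1715 were called, 54 higher and 255 lower, against 31.1% of all genes tested (13.6% higher and 17.4% lower), and 168 at 0.01 (17.1% of all genes). The median log2 change was -0.07, against 0.02 for all genes. With no scaling 138 were higher and 150 lower, while the median of all genes moved to 0.35 and that of the pseudogenes to 0.25. With upper quartile scaling 77 were higher and 205 lower. The count was 200 without KO-C 2 and 195 without KO-D 3. In KO-D against WT-C, which also differ in genotype, 605 were called, 76 higher and 529 lower, against 40.1% of all genes tested (19.4% higher and 20.7% lower), and 322 at 0.01 (23.4%). The median was -0.47, against 0.03 for all genes, and with no scaling 251 were higher and 191 lower, with medians of 0.04 and 0.54.

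The largest falls in KO-D against KO-C included copies of ribosomal protein genes and of Pkig and Ubald2. Rpl36-ps12 had 0.221, 1.05 and 0.297 TMM-scaled CPM in KO-D mice, 6.52, 1.40 and 4.92 in WT-D mice, 4.64, 4.50 and 3.68 in KO-C mice and 8.14, 5.13 and 3.67 in WT-C mice. Every KO-D mouse lay below every other mouse, and the second WT-D mouse was the lowest of the rest. The log2 change was -3.04 in KO-D against KO-C (SE 0.54, limma adjusted p = 0.0011), and Rpl36 itself changed by -3.14. Gm16418, a copy of the complex III subunit gene Uqcr11, had 1.26, 1.97 and 1.31 CPM in KO-D mice, 8.26, 3.69 and 8.77 in WT-D mice, 7.01, 8.12 and 5.74 in KO-C mice and 14.8, 8.94 and 7.17 in WT-C mice, with a log2 change of -2.14 against KO-C (SE 0.34, adjusted p = 0.00052). Rpl29-ps5 had 0, 3 and 2 reads in KO-D mice, 153, 9 and 40 in WT-D mice, 36, 37 and 35 in KO-C mice and 31, 34 and 22 in WT-C mice. Gm6334 (a copy of the kinase inhibitor gene Pkig), Gm5735 (Rps29), Gm7367 (Ubald2) and Gm28911 (Rpl8) fell in KO-D against KO-C by 3.14, 2.85, 3.00 and 2.02 on the log2 scale. Gm6334 had 2, 2 and 4 reads in KO-D mice, against 58, 40 and 53 in KO-C mice.

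By family, copies of ribosomal protein genes were the largest group among the pseudogenes called lower. Of 533, 63 were lower in WT-D against WT-C, 110 in KO-D against KO-C and 262 in KO-D against WT-C, with 0, 1 and 1 higher and medians of -0.55, -0.12 and -0.72. Over all genes tested, 8.22, 17.4 and 20.7% were lower and 13.7, 13.6 and 19.4% higher in these comparisons, so in the comparisons within a genotype the lower counts of this family lay near the share of all genes. Of their 78 parents, 11, 42 and 62 were lower and none was higher in these comparisons. Without WT-D 3, the first count was 257, and with no scaling it was 1. Glycolytic copies were little called in WT-D against WT-C (3 higher and 1 lower of 92, 43 called without WT-D 3), while 31 were lower in KO-D against KO-C and 39 in KO-D against WT-C. Most of these were copies of Gapdh, of which 26 of 64 and 34 of 64 were lower. Respiratory chain copies were lower in 13, 7 and 25 of 69 cases, with 41 called in the first comparison without WT-D 3. Translation factor copies were lower in 15 of 58 in WT-D against WT-C and in 2 in KO-D against KO-C. Of 25 cytoskeletal copies, 3 were higher in WT-D against WT-C and 4 in the knockout comparison, with none lower, and these counts of higher rows lay near the share of all genes. Among them Gm14150, named after its values were seen and a copy of the tubulin gene Tuba1b, rose by 0.54 (limma adjusted p = 0.020) and 0.58 (adjusted p = 0.0088), where Tuba1b itself was not called (0.23 and -0.19).

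The calls in the 2 genotypes overlapped only in part. Between the wild type comparison (WT-D against WT-C) and the knockout comparison (KO-D against KO-C), which share no mice, 23 pseudogenes were higher in both and 30 lower in both, and 0 went in opposite directions. The 53 shared calls were 23.3% of the wild type calls and 17.2% of the knockout calls, against 61.4 and 43.4% for all genes tested. That a pseudogene passed in 1 genotype only does not show a difference, and that difference was tested as the interaction below.

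In 3 of 4 comparisons most called pseudogenes had a parent called the same way. Of 1675 pairs with a tested parent, 218 pseudogenes were called in WT-D against WT-C, and for 153 (70.2%) the parent was called the same way. In KO-D against KO-C these were 244 of 298 (81.9%), and in KO-D against WT-C 522 of 587 (88.9%). In KO-D against WT-D they were 42 of 90 (46.7%), and the other 48 were called without their parent. Conversely, a called parent had a copy that was not called in 194, 422, 481 and 144 pairs, in the order of these comparisons. The percentages also depend on how often the parents of these pairs were called at all. Of all genes tested, 22, 31.1, 40.1 and 5.53% were called in the same order. The parents, counted once for each copy, were called at a higher share than that in all but the first comparison. The parent was called the opposite way once in KO-D against KO-C (4933427G23Rik, whose match Imp3 covers 23.5% of its length) and once in KO-D against WT-C (Gm38080 and Rpl13), both named after their values were seen. Across the pairs, the log2 changes of pseudogene and parent had Pearson's r of 0.75 within the wild type and of 0.70 within the knockout. Pairs are not independent, because many share a parent and all share libraries, and some share reads. In pairs with no shared 100-base stretch r was 0.62 (n = 275) and 0.61, and in pairs with all stretches shared it was 0.80 (n = 122) and 0.76. Medians over the pairs count a parent again for each of its copies. In KO-D against KO-C they were -0.08 for the pseudogenes and -0.33 for the parents. In WT-D against WT-C they were -0.42 and -0.37.

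**Figure D4:**
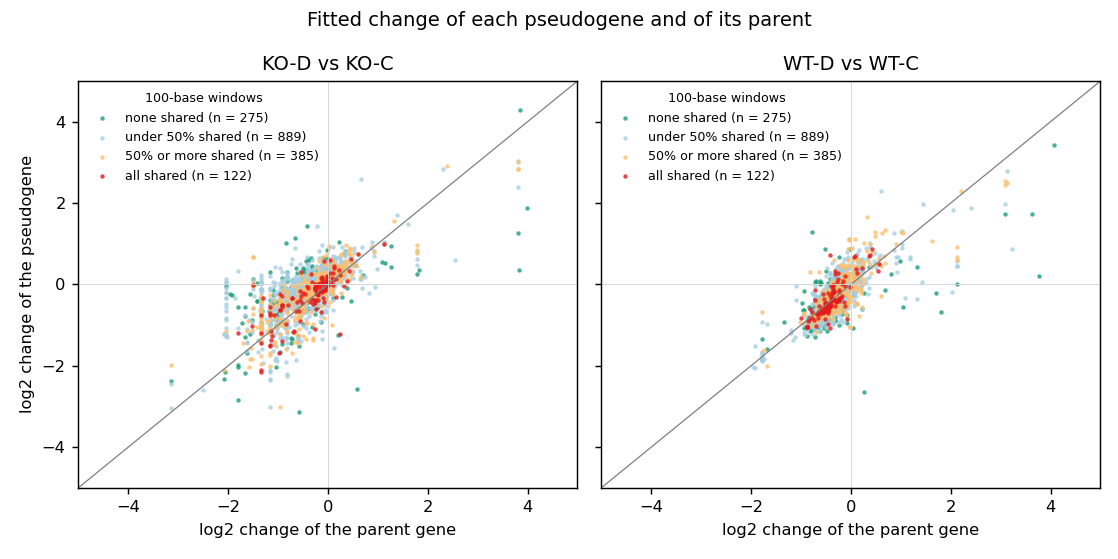
Fitted log2 change of each pseudogene against that of its parent in KO-D against KO-C (left) and WT-D against WT-C (right), coloured by how many 100-base stretches recur in transcripts of other genes. The grey diagonal marks equal change, and Pearson's r is 0.70 on the left and 0.75 on the right.

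Between the diabetic groups the pseudogenes were called at about the share of all genes, whose calls were also mostly lower. In KO-D against WT-D, 90 of 1715 (5.25%) were called, 0 higher and 90 lower, against 5.53% of all genes tested (0.103% higher and 5.43% lower), and 0 at 0.01. Of the 90, 53 were among the 533 copies of ribosomal protein genes, which made up 31.1% of the 1715 pseudogenes. A further 6 were among the 64 copies of Gapdh. Gm15454 (ENSMUSG00000096712), the copy of Rpl29 shown above, had 10.1, 14.3 and 9.49 TMM-scaled CPM in KO-D mice, 33.3, 24.1 and 47.9 in WT-D mice, 46.3, 48.9 and 39.6 in KO-C mice and 59.1, 48.0 and 40.2 in WT-C mice. The KO-D mice lay below all others, with a log2 change of -1.60 against WT-D (SE 0.24, limma adjusted p = 0.010). Gm11449, another copy of Rpl29, changed by -2.09, Gm10736 (a copy of Rpl41) by -1.48 and Gm11605 (a copy of the mitochondrial lipid transfer gene Prelid1) by -1.44, with the same adjusted p. These calls did not hold in every fit. The count was 0 without WT-D 1, WT-D 3 or KO-D 3, with 289, 244 and 204 at an unadjusted p under 0.05, and also 0 in a limma fit on the 6 mice alone (241 unadjusted). It was 16 without KO-D 1, 56 without KO-C 1 and 57 without KO-C 2, 143 with DESeq2 and 97 with edgeR.

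The pseudogenes that were lower in KO-D were rich in G and C. Of the 90 called in KO-D against WT-D, 77 were in the GC-richest tercile of pseudogenes (above 52.2% GC), 13 in the middle and 0 in the GC-poorest (up to 47.5% GC). The 255 lower in KO-D against KO-C split as 191, 51 and 13, and the 192 lower in WT-D against WT-C as 37, 89 and 66. Other genes split in the same order, with 823, 69 and 12 of those lower in KO-D against WT-D in the same GC classes. The GC gap of a library, the median level of the GC-richest minus that of the GC-poorest tercile on the log2 scale, was -0.54, -0.23 and -0.51 for the pseudogenes in KO-D mice, 0.01, -0.12 and 0.37 in WT-D mice, 0.21, 0.27 and 0.03 in KO-C mice and 0.30, 0.24 and 0.10 in WT-C mice. All KO-D libraries had a lower gap than all other libraries, and the other genes gave -0.52, -0.12 and -0.41 in KO-D. In a fit on levels corrected for GC content in each library, an alternative chosen after seeing the data, 6 pseudogenes were called in KO-D against WT-D in place of 90, 268 in KO-D against KO-C and 424 in WT-D against WT-C. The 6, read off that fit, were Gm10736, Gm11449, Gm11605, Gm15454, Gm8225 and Nutf2-ps2, with log2 changes of -1.73 to -1.13. Whether the GC gap arose in the kidneys or in the preparation of the libraries was not tested.

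**Figure D5:**
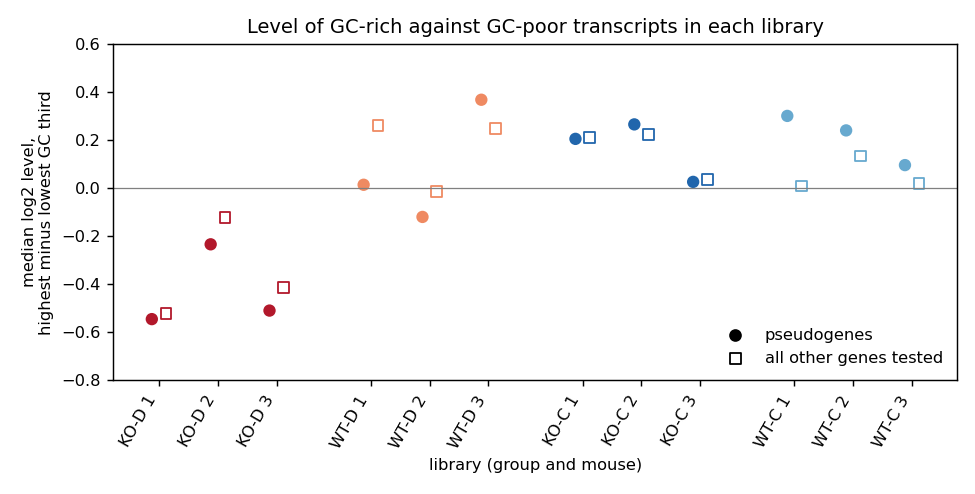
Median log2 level of the GC-richest minus that of the GC-poorest tercile of transcripts in each library, for the pseudogenes (filled circles) and for all other genes tested (open squares). The 3 KO-D libraries have the lowest values for pseudogenes, -0.54, -0.23 and -0.51.

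Without diabetes, no pseudogene was called by limma between the genotypes (0% of all genes tested). In KO-C against WT-C 376 had an unadjusted p under 0.05, edgeR called 0 and DESeq2 2, and the median log2 change was -0.29, against 0.03 for all genes. From the GC-poorest to the GC-richest tercile, the 376 included 124 of 571, 163 of 570 and 87 of 571 pseudogenes. Among other genes in these GC classes, 339 of 6649, 282 of 4242 and 542 of 5827 had such a p. The smallest p were those of 3 copies of Ccl19, a chemokine gene, on chromosome 4. The deletion is on the same chromosome, and a link to it was not tested. Ccl19-ps3 (100% identity over its length) had 1.07, 0.657 and 0.624 TMM-scaled CPM in KO-D mice, 1.41, 3.14 and 3.03 in WT-D mice, 0.264, 0.349 and 0.406 in KO-C mice and 3.09, 0.953 and 1.53 in WT-C mice. The KO-C mice lay below the WT-C mice and the KO-D mice below the WT-D mice, with log2 changes of -2.02 (SE 0.41, limma adjusted p = 0.59) and -1.52 (adjusted p = 0.046). Gm2564 and Gm12407 changed by -2.01 and -1.88 in KO-C against WT-C, also at an adjusted p of 0.59, and Ccl19-ps3 and Gm2564 were the 2 calls of DESeq2. Ccl19 itself changed by -2.01 in KO-C against WT-C (limma adjusted p = 0.59). In KO-D against WT-D it changed by -1.45 (adjusted p = 0.053). The rows for Ccl19-ps3 and Gm2564 had 34, 20 and 21 reads each in the KO-D libraries and 9, 11 and 14 each in the KO-C libraries, although they lie apart on the chromosome.

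The interaction, (KO-D minus KO-C) minus (WT-D minus WT-C), gave no call by limma (0% of all genes tested), with 285 pseudogenes at an unadjusted p under 0.05, 0 by edgeR and 34 by DESeq2. From the GC-poorest to the GC-richest tercile, the 285 were 65 of 571, 107 of 570 and 113 of 571 pseudogenes. Among other genes in these GC classes, 250 of 6649, 279 of 4242 and 1870 of 5827 had such a p. The smallest p were those of the Gapdh copies Gm14760, Gm12671 and Gm10359, with interactions of -1.88, -2.08 and -2.13 on the log2 scale (limma adjusted p = 0.077). Gm12671 had 18.4, 21.3 and 14.8 TMM-scaled CPM in KO-D mice, 61.7, 29.5 and 84.9 in WT-D mice, 72.9, 72.2 and 87.7 in KO-C mice and 39.2, 79.3 and 51.5 in WT-C mice. It was lower in KO-D than in KO-C in every mouse, by -2.10 (SE 0.33, adjusted p = 0.00051), and the wild type groups overlapped (-0.02). Gapdh had 823, 947 and 736 in KO-D mice, 1255, 1194 and 2462 in WT-D mice, 2103, 2147 and 2106 in KO-C mice and 1683, 2274 and 2065 in WT-C mice. Without WT-D 2 the interaction was called for 45 pseudogenes, and without KO-D 2 for 18.

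Further pseudogenes were named for their high mean among those with a gene's name. Rps3a3, a copy of the ribosomal gene Rps3a1, had 112, 125 and 133 TMM-scaled CPM in KO-D mice, 125, 139 and 184 in WT-D mice, 177, 190 and 156 in KO-C mice and 327, 195 and 203 in WT-C mice, and fell by 0.67 on the log2 scale in WT-D against WT-C (SE 0.20, limma adjusted p = 0.031). Without scaling the change of Rps3a3 was -0.29, and it was not called then, with no filter, on the groups compared, or without WT-C 1 (-0.47), WT-D 1 (-0.55) or WT-D 2 (-0.63). Tpt1-ps3, identical to Tpt1, the gene of translationally controlled tumour protein, had 93.9, 75.1 and 105 in KO-D mice, 83.5, 94.1 and 119 in WT-D mice, 120, 128 and 121 in KO-C mice and 255, 152 and 157 in WT-C mice. Its change was -0.90 in WT-D against WT-C (SE 0.20, limma adjusted p = 0.0085), and its reads were 0.0758 to 0.0859 of those of Tpt1. Rpl3-ps1, a copy of Rpl3, had 33.5, 37.5 and 33.4 in KO-D mice, 75.6, 52.1 and 79.0 in WT-D mice, 87.0, 88.4 and 109 in KO-C mice and 95.8, 103 and 78.1 in WT-C mice. It changed by -1.44 in KO-D against KO-C (adjusted p = 0.00012), and the KO-D mice lay below all others. Atp6v0c-ps2, a copy of a vacuolar proton pump gene, Rps2-ps13 and Gpx4-ps2 changed by -1.23, -1.14 and -1.02 in KO-D against KO-C. The copy Gm13456 of the elongation factor gene Eef1a1 changed by -0.58 in WT-D against WT-C (limma adjusted p = 0.026). The call of Gm13456 was lost with no scaling (-0.20), with no filter, on the groups compared, and without WT-D 1 (-0.43) or WT-D 2 (-0.58).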

How the data were processed

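Total RNA of renal cortex was sequenced with a kit that does not mark strand. Per the study's methods and the submitters' processing notes, the authors aligned the reads to mm10 with STAR 2.7.3a, counted them per gene in R 3.6.1 and scaled them with edgeR 3.28.0, and the deposited values are CPM. Each column summed to 1000000, and dividing by its smallest value above 0 gave whole reads (100% of values, within 0.01). The deposited table of fold changes and adjusted p-values of 5 comparisons was not used. Levels were log2(CPM + 0.1) after TMM scaling, filtered with filterByExpr (minimum count 10, minimum total 15, 18461 genes) and fitted with limma 3.58.1 (trend) in R 4.3.3 over all 12 libraries. Adjusted p-values are Benjamini-Hochberg over all genes tested, and fold changes of low genes are understated by the pseudocount. edgeR 4.0.16 and DESeq2 1.42.0 on the recovered reads were alternatives. Parents were found with blastn 2.17.0 against GENCODE M21 transcripts (e-value up to 1e-10), since no genome sequence was used, and a search of the whole genome, as first planned, was not made. Scripts were tested on simulated data. Named pseudogenes were those with the highest mean, the largest called increases and decreases and the smallest p in each comparison, with a few named otherwise where stated. The members, families and lists were chosen with earlier results of these data known.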

Additional observations from a re-analysis of the deposited data

How the results depend on the processing

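The count of called pseudogenes depended on the libraries and the fit. In WT-D against WT-C (227) it was 36 at an adjusted p of 0.01, 108 with no scaling, 98 with no filter, 433 with DESeq2, 86 in a fit on the groups compared, 424 on levels corrected for GC content and 39 to 629 with 1 library left out. In KO-D against KO-C (309) it was 168 at 0.01 and 195 to 334 with 1 library left out, and in KO-D against WT-C (605) 322 and 416 to 675. In KO-D against WT-D (90) it was 0 at 0.01, 20 with no scaling, 58 with upper quartile scaling, 59 with no filter, 143 with DESeq2, 0 on the groups compared, 6 after GC correction and 0 to 127 with 1 library left out. In KO-C against WT-C DESeq2 called 2, and leaving out a library gave 0 to 0. In the interaction DESeq2 called 34, and leaving out a library gave 0 to 45. Gm13456 changed by 0.0116 in KO-D against WT-C with no scaling, a reversed sign, and the cause was not tested. The mean share of reads of 14.3% became 2.47% without the 5 highest pseudogenes, and the 289 pseudogenes with no shared stretch became 32 with 50-base stretches.

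With the replicate number as a block, the counts were 123 in WT-D against WT-C, 47 in KO-D against WT-D, 0 in KO-C against WT-C and 0 in the interaction. The call of Rps3a3 in WT-D against WT-C was lost with the block (adjusted p = 0.0551, limma). The numbers did not pair the mice: over 18 pairs of same-numbered libraries the correlation of deviations was -0.35 to 0.29, and 1 of 12 libraries correlated best with its own number. Of 2094 values of the 61 named pseudogenes under the alternatives, 1997 kept their direction and their side of the threshold. Levels corrected for GC content, and the fit without mitochondrial genes and their copies, were chosen after seeing the data. Reads that fit several places limit every level given for a row that shares its sequence.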
